A study of Mus musculus with 4 samples.

Results

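The genes of the sliding clamp, its loader, the single-strand DNA binding protein and the enzymes that finish Okazaki fragments were examined in mouse liver 48 h after surgery. They are Pcna, Rfc1, Rfc2, Rfc3, Rfc4, Rfc5, Fen1, Lig1, Rpa1 and Rpa2. Members were all probe sets whose platform annotation names exactly 1 of these 10 symbols, which gave 19 of the array's 45101 probe sets. All 10 genes were found, among 18193 genes named by a probe set of their own. The comparison set 2 arrays from sham-operated livers against 2 arrays from livers after partial hepatectomy. The operation takes out part of the liver, and the remnant then grows back. Both groups held total RNA from mature liver of C57BL/6J mice taken at 48 h, with no transgene or drug named in the labels. The age and sex of the animals, the share of liver removed and whether RNA was pooled over animals were not given in the sources used here. The design text calls the arrays biological duplicates, and p-values measure only the spread between these arrays.

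DNA polymerase holds on to its template through a ring of Pcna that encircles the duplex and slides along it. The ring is opened and placed on DNA by replication factor C, an ATP-driven complex of the large subunit Rfc1 with the small subunits Rfc2 to Rfc5. The exposed template is covered by replication protein A, of which Rpa1 is the large DNA binding subunit and Rpa2 the middle subunit, a target of checkpoint kinases. On the lagging strand Fen1 cuts the displaced flap of each Okazaki fragment and Lig1 seals the remaining nick, both while bound to the ring. In adult liver few hepatocytes divide, and after partial hepatectomy of the mouse most of those left enter DNA synthesis within days.

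Transcripts of the ring, the small subunits of the loader, the Okazaki enzymes and Rpa2 were higher after partial hepatectomy. By limma with Benjamini-Hochberg adjustment over all 27022 probe sets tested, 8 of the 10 genes rose and none fell, where 3.57% of all 12560 genes tested were called higher. Lig1 showed the largest difference of the 10, a log2 fold change of 2.92 ± 0.24 (SE), and Pcna the smallest of those that rose, 1.05 ± 0.15. Rfc1 (0.48 ± 0.16) and Rpa1 (0.59 ± 0.13), the large subunits of their complexes, did not pass. The median log2 fold change of the 10 genes was 1.45, against 0.025 for all genes tested. A log2 fold change here is on the scale of log2(signal + 8.57), and each gene is represented by its probe set with the highest mean. The 10 genes and the lists further on were chosen with earlier results of these data known.

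Each array had been scaled before deposit, and all 4 had the same mean signal, 500, once the lowest and the highest 2% of values were dropped. Of 7 measured hepatocyte marker genes, all were above 20.4, the highest signal of the Bacillus subtilis control probe sets, on every array, and their summed signal lay between 95621 and 111856. Hepatectomy replicate 1 stood apart in markers of other tissues. The summed signal of 7 measured adrenal cortex markers was 19680 on it and 176 to 211 on the other 3 arrays. That of 4 measured fat cell markers was 150 and 66.7 on the sham arrays, 277 on hepatectomy replicate 2 and 2287 on hepatectomy replicate 1. Without that array, with hepatectomy replicate 2 alone in its group, log2 fold changes of the 10 genes ran from 0.38 to 2.95. The summed signals of other cell types, sham arrays against hepatectomy arrays, were 14630 and 14865 against 15477 and 15939 for 7 macrophage markers, 4271 and 5754 against 7197 and 8692 for 7 stellate cell markers, and 6681 and 6682 against 5930 and 6120 for 7 sinusoidal endothelial markers. For 5 bile duct markers they were 459 and 530 against 744 and 1279, for 7 lymphocyte markers 415 and 494 against 218 and 253, and for 6 erythroid precursor markers 6169 and 6590 against 4546 and 4776. Within these lists limma called 5 markers, and a sum can hide them: Marco was higher and Csf1r lower among the macrophage markers, Col1a1 and Col3a1 were higher among the stellate cell markers, and Klf1 was lower among the erythroid markers (log2 fold changes 3.45, -0.70, 2.64, 1.62 and -1.82). The stellate cell markers Lrat and Reln had values of -0.75 and -0.46, and Des, Hgf and Pdgfrb had 1.06, 0.68 and 0.26. None of these passed, though a dimmer probe set of Hgf was called higher (1.85). The part of these cell types in the results was not tested. In RNA of a whole tissue, more cells that express a gene and more RNA per cell cannot be told apart.

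Promoter sequence is shown for the 4 called genes whose stretch before the start used here overlaps no annotated gene, the gene itself included. They are the ring, the loader subunits Rfc3 and Rfc4 and the binding subunit Rpa2. Each line holds the 150 bases before the RefSeq gene start on GRCm38.p6, in the direction of transcription. Capitals mark words of the E2F type (the word TTCCCGC, the word TTCGCGC, the word TTGCCGC or the word TTGGCGC) and the word CCAAT, on either strand. E2F proteins are transcription factors of S-phase genes, and CCAAT is the word bound by the factor NF-Y.

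Pcna, chr2:132253181-132253330, minus strand: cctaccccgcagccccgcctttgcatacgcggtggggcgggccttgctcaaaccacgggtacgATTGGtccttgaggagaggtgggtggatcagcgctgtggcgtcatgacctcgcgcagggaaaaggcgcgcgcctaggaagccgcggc

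Rfc3, chr5:151651209-151651358, minus strand: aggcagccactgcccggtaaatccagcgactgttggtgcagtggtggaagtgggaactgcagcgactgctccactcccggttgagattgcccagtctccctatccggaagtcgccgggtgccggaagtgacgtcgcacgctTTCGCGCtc

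Rfc4, chr16:23127731-23127880, minus strand: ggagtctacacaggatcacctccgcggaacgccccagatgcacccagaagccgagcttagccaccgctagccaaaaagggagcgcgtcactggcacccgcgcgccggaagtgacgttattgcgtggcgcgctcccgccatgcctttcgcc

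Rpa2, chr4:132768210-132768359, plus strand: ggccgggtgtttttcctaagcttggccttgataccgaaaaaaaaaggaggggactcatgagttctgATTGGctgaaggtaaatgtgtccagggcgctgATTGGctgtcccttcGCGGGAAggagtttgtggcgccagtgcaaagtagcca

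In the stretch shown, Rpa2 holds an E2F-type word that begins 37 bases before the start and CCAAT words at 52 and 84 bases before it. Rfc3 holds an E2F-type word 9 bases before its start and another that begins with the first transcribed base, and Rfc4 holds one at base 12 after its start. Pcna has none of the 4 E2F-type words in its window and 1 CCAAT word, 87 bases before the start. Windows of 300 bases, from 250 before to 50 after a start, came from RefSeq for the 9 genes other than Rfc2, with 12 windows in all since Fen1 has 2 and Lig1 has 3. An E2F-type word lay in at least 1 window of 6 of these 9 genes (Rfc1, Rfc3, Rfc4, Fen1, Lig1 and Rpa2), and in 10.9% of all 27025 genes with windows, or 9.57% of 32851 windows. In Rfc1 the 2 matches, 28 and 31 bases after the start, overlap each other on opposite strands, and both overlap a CCAAT word. CCAAT was found in 5 of the 9 genes (Pcna, Rfc1, Rfc3, Rpa1 and Rpa2) and in 41.1% of all genes, and the GC box GGGCGG, a word bound by Sp factors, in 5 (Pcna, Rfc1, Rfc4, Lig1 and Rpa1) and in 38.2%. Members of both kinds hold E2F-type words, the called Rfc3 and the uncalled Rfc1 among them. The words were chosen after the windows had been read, and a match is a description of letters, not a binding site.

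**Figure D1:**
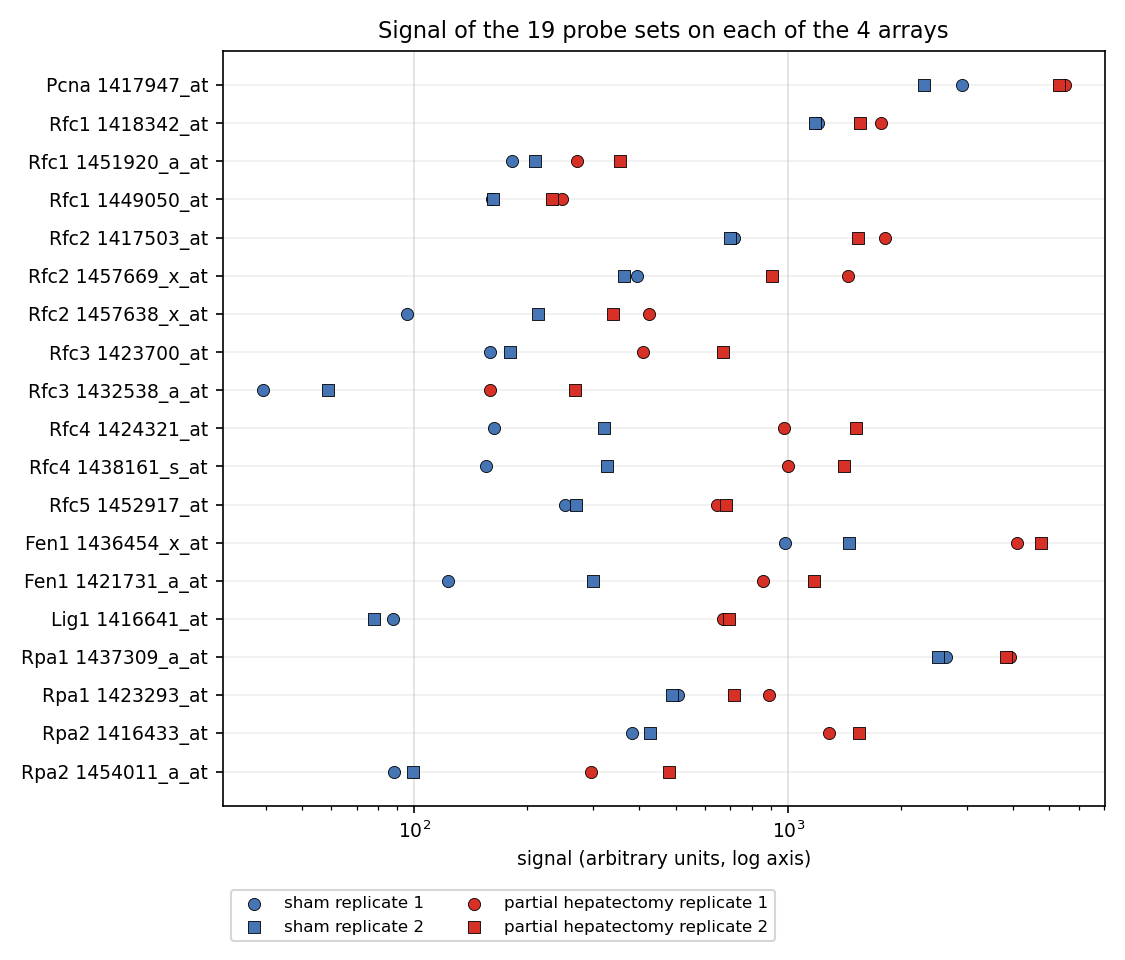
Signal in arbitrary units (log axis) of the 19 probe sets on each of the 4 arrays, with sham arrays in blue and partial hepatectomy arrays in red, circles for replicate 1 and squares for replicate 2. In all 19 rows both red points lie to the right of both blue points; rows of different probe sets cannot be compared in level.

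All 19 probe sets passed the filter on dim signals, and in all 19 both hepatectomy arrays lay above both sham arrays. Such an order was seen in 24.4% of all probe sets tested. Of the 19, 13 were called higher and 0 lower by limma, against 2.51% called higher among all probe sets tested. An unadjusted limma p below 0.05 was found for 18 of the 19. Among all 27022 tested, in both directions, the probe set at rank 4466 by adjusted p had an unadjusted p of 0.0494. The log2 fold changes of the 19 ran from 0.48 to 2.92 with a median of 1.57, and the median of all probe sets tested was 0.001. The plot of signal by array shows how far the arrays of a group lay from each other: the replicate difference of a probe set was between 0.01 and 1.29 on the log2 scale for the sham arrays and between 0.04 and 0.76 for the hepatectomy arrays. Sham replicate 2 was the higher of the sham arrays in 12 of 19 probe sets and hepatectomy replicate 2 the higher of its group in 11, so neither array was high throughout.

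Pcna, the ring itself, has 1 probe set, and it gave a clear signal in sham-operated liver too. The sham arrays read 2924 and 2316, and the hepatectomy arrays 5492 and 5320. The hepatectomy arrays lay close together, and the sham arrays differed more from each other. The mean signal went from 2620 ± 430 to 5406 ± 122 (SD, n = 2 arrays in each group), a fold of 2.07 with a 95% confidence interval of 1.63 to 2.64 (limma, adjusted p = 0.00985). Among the 12560 genes tested, 6.07% had a higher log2 fold change.

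The clamp loader was measured through its large subunit and its 4 small ones. Rfc1, which carries a DNA binding region of its own, was measured by 3 probe sets and none was called. Its brightest, 1418342_at, read 1200 and 1179 in sham and 1777 and 1554 after hepatectomy. The groups did not overlap, the fold was 1.39 with an interval of 1.07 to 1.81, and the adjusted p was 0.188 (limma). The dimmer 1451920_a_at read 183 and 210 against 272 and 355 (adjusted p = 0.257), and 1449050_at read 161 and 162 against 249 and 234 (limma, adjusted p = 0.311). Their log2 fold changes, 0.65 and 0.56, lay close to the 0.48 of the brightest, so the 3 probe sets of Rfc1 gave like estimates.

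Rfc2, a small subunit with an ATP binding site, was measured by 3 probe sets, of which 2 were called. The brightest read 716 and 700 on the sham arrays against 1812 and 1537 on the hepatectomy arrays. It rose by a log2 fold change of 1.23 ± 0.18 (limma, adjusted p = 0.00981). The probe set 1457669_x_at read 394 and 364 against 1444 and 903 and rose by 1.57 ± 0.25 (adjusted p = 0.0156). The third, 1457638_x_at, read 95.3 and 214 against 424 and 339. Its sham arrays differed by 1.17 on the log2 scale, and its difference of 1.35 ± 0.37 did not pass (limma, adjusted p = 0.105). The suffix x marks probe sets that may match several transcripts.

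Rfc3, another of the small subunits, was called in both of its probe sets. The brighter read 159 and 180 in sham against 409 and 669 after hepatectomy, and rose by 1.58 ± 0.29 (limma, adjusted p = 0.0254). The dimmer read 39.3 and 58.7 against 159 and 269, and rose by 1.93 ± 0.36 (limma, adjusted p = 0.0293). In both, hepatectomy replicate 2 was the higher array of its group.

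Rfc4 showed the largest difference within the loader, also in both probe sets. The first read 163 and 322 in sham and 976 and 1518 after hepatectomy. The second, which shares the symbol but may match several transcripts, read 155 and 327 against 1000 and 1413. Sham replicate 2 was about as far above sham replicate 1 in both, by 0.98 and 1.07 on the log2 scale, and every hepatectomy value was still above it. The log2 fold changes were 2.36 ± 0.34 (limma, adjusted p = 0.0106) and 2.35 ± 0.35 (adjusted p = 0.011), a fold of 5.14 for the first with an interval of 2.97 to 8.92.

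Rfc5 had 1 probe set with tight replicates. It read 253 and 270 in sham and 646 and 680 after hepatectomy, a rise of 1.31 ± 0.21 (limma, adjusted p = 0.015). The small subunits thus rose by 1.23 to 2.36 in their brightest probe sets. Within an array, the log2 difference between each small subunit and Rfc1 moved between groups by 0.75 for Rfc2, 1.10 for Rfc3, 1.88 for Rfc4 and 0.84 for Rfc5. The sham and hepatectomy arrays did not overlap in any of these 4 differences, whose pooled SDs were 0.02, 0.46, 0.64 and 0.14. The exact permutation test over 4 arrays, two-sided, gave p = 0.333 for each, which is the smallest p the design allows, and 0.333 after adjustment over the 6 such contrasts computed. With 4 arrays this test cannot pass 0.05, so it does not settle whether Rfc1 differed.

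**Figure D2:**
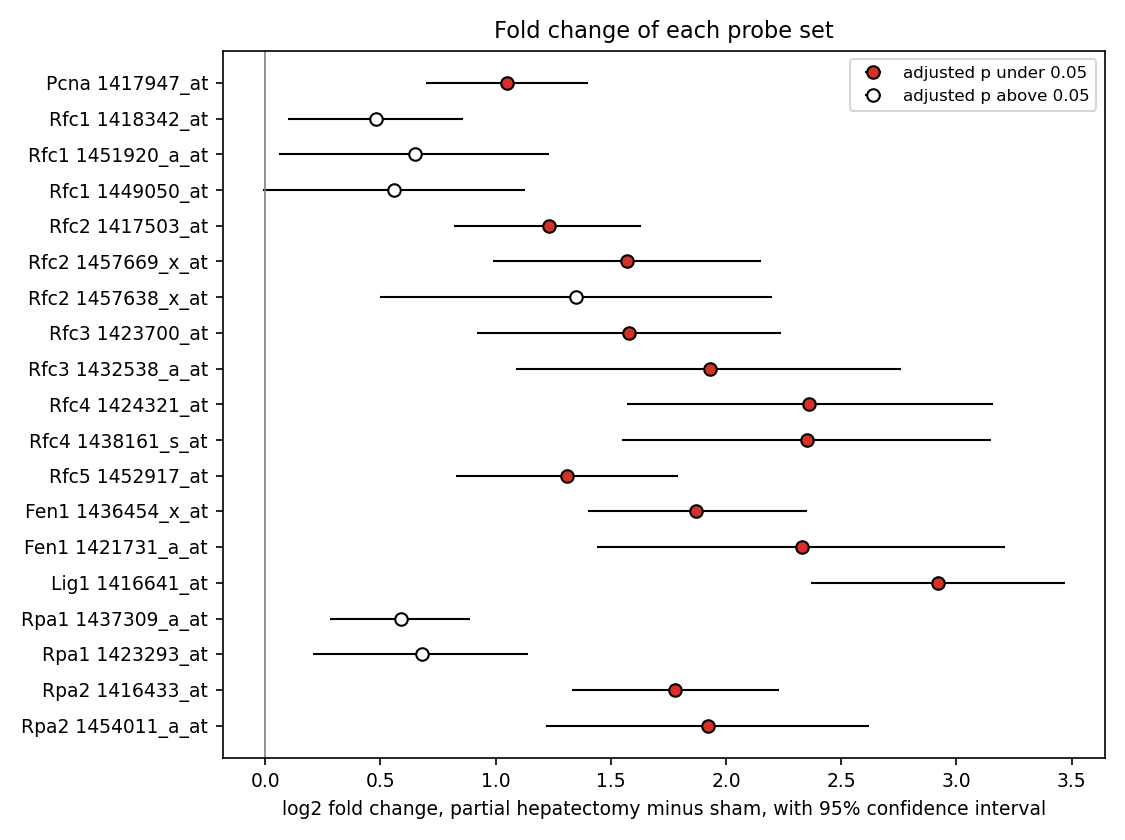
Log2 fold change of each probe set, partial hepatectomy minus sham, as the limma estimate with its unadjusted 95% confidence interval from 2 arrays in each group; filled points passed an adjusted p of 0.05. All 19 estimates lie above 0, and the 6 open points are the 3 of Rfc1, the 2 of Rpa1 and 1 of Rfc2.

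Fen1, the flap endonuclease, rose in both of its probe sets. The brighter, 1436454_x_at, read 983 and 1453 in sham and 4085 and 4747 after hepatectomy. It rose by 1.87 ± 0.20 (limma, adjusted p = 0.00288). The other read 123 and 301 against 857 and 1170 and rose by 2.33 ± 0.39 (limma, adjusted p = 0.018). Both probe sets carry suffixes that allow matches to several transcripts, and Fen1 had no probe set without one.

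Lig1, the ligase of Okazaki fragments, showed the largest fold of the 10. It read 87.4 and 78 in sham and 669 and 694 after hepatectomy, all above the control level of 20.4. The arrays of each group lay close together, with means of 82.7 ± 6.65 and 681 ± 17.8 (SD, n = 2 arrays in each group). The fold was 7.56 with an interval of 5.18 to 11.1 (limma, adjusted p = 0.000905), and 0.828% of all genes tested had a higher log2 fold change. Set against Fen1 within each array, Lig1 moved by 1.04 more between the groups, with a pooled SD of 0.36 and no overlap (exact permutation p = 0.333, the smallest possible).

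Replication protein A showed unequal estimates for its subunits. Rpa1 read 2639 and 2517 in sham and 3932 and 3821 after hepatectomy in its brighter probe set. These 4 values form 2 tight pairs, and the fold of 1.5 (interval 1.22 to 1.85) missed the threshold (limma, adjusted p = 0.0557). The second probe set read 506 and 488 against 890 and 717, a log2 difference of 0.68 ± 0.20 (limma, adjusted p = 0.135). Rpa2 read 381 and 428 in sham against 1284 and 1543 after hepatectomy and rose by 1.78 ± 0.20 (limma, adjusted p = 0.00293). Its dimmer probe set read 88.2 and 99.4 against 297 and 481 and rose by 1.92 ± 0.30 (limma, adjusted p = 0.0146). Within arrays, Rpa2 moved by 1.19 more than Rpa1, with a pooled SD of 0.19 and no overlap (exact permutation p = 0.333, the smallest possible). Rpa3, the small subunit of the complex and no member here, read 710 and 578 against 664 and 1048. Its groups overlapped, and its difference of 0.38 ± 0.25 did not pass (limma, adjusted p = 0.525).

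**Figure D3:**
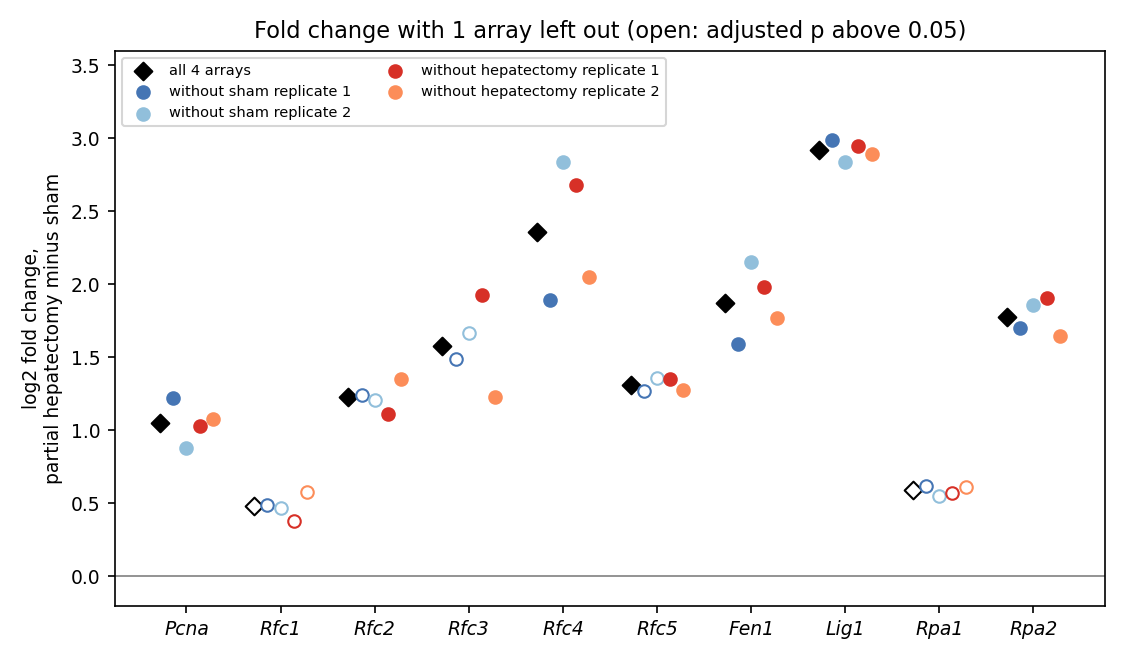
Log2 fold change of the 10 genes, partial hepatectomy minus sham, with all 4 arrays (diamonds) and with 1 array left out (circles); open symbols have an adjusted p above 0.05. Every value is above 0; Lig1, Fen1, Rfc4, Rpa2 and Pcna stay filled whichever array is left out, and Rfc2, Rfc3 and Rfc5 open without a sham array.

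Which genes passed depended on the sham arrays and on the variance model, while the estimates stayed above 0 under every alternative run. Leaving out sham replicate 1 ended the calls of Rfc2 (limma, adjusted p = 0.0777), Rfc3 (0.169) and Rfc5 (0.131), and leaving out sham replicate 2 ended the same 3 (0.0674, 0.0992 and 0.0855), so that 5 of 10 were called in either case. In such fits the lone sham array is assumed to vary like the hepatectomy arrays. Rfc4 ran from 1.89 without sham replicate 1 to 2.84 without sham replicate 2, with a call in both. Without a mean-variance trend only Lig1 (limma, adjusted p = 0.0158) and Rpa2 (0.0435) were called. Without the filter on dim probe sets Pcna (0.0519), Rfc3 (0.0922) and Rfc4 (0.0599) were lost. Rpa1 passed under 4 of its 15 alternatives, with quantile normalization (0.0344), the stricter filter (0.0439), robust eBayes (0.0393) and the replicate number as a block (0.031). Rfc1 passed under none of its 15, with adjusted p from 0.112 to 0.567.

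Genes that act beside these were read from 5 lists with 62 genes, of which 60 had a probe set and 59 were tested. Of these 59, 21 rose and 0 fell (limma; 13 without sham replicate 1), against 3.57% of all genes called higher. Of 10 tested genes of other loaders, the checkpoint clamp, Pcna-associated factors and Rpa3, 4 rose. Chtf18 and Dscc1 are subunits of an alternative loader built on Rfc2 to Rfc5. Chtf18 was below the control level on both sham arrays and read 0.693 and 3.28 against 155 and 193, at least 8.47-fold higher (limma, adjusted p = 0.0015). The brighter probe set of Dscc1 read 5.47 and 17.9 against 216 and 277 (limma, adjusted p = 0.00288). Its other probe set, at 31 and 12.4 against 71.3 and 36.2, was also higher without overlap. That difference did not pass (log2 fold change 1.06, limma, adjusted p = 0.332). This probe set was dim, with sham replicate 2 below the control level. Chtf8, the further subunit of that loader, named after its value was seen, read 428 and 587 against 664 and 518 and did not pass (log2 fold change 0.22). The bound for Chtf18 sets the hepatectomy arrays' mean of log2 signals against 20.4.

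Atad5, the large subunit of the complex that takes the ring off DNA, read 136 and 148 against 558 and 677 and rose by 2.05 (limma, adjusted p = 0.00349). Pclaf, a small protein bound by the ring, read 47.6 and 80.7 against 436 and 422 and rose by 2.63 (adjusted p = 0.00362). The other 6 tested genes of that list, among them the checkpoint clamp genes Rad9a, Rad1 and Hus1 and their loader subunit Rad17, had log2 fold changes from 0.22 to 0.58 and none passed. The other probe set of Atad5 did not pass (limma, adjusted p = 0.0839). Over the list the median was 0.48.

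Of 17 genes listed under lagging strand synthesis and flap processing, 9 rose, with a list median of 1.23. The list also holds the leading strand polymerase genes Pole and Pole2, and both are among the 9. Prim1, the catalytic subunit of primase, read 334 and 330 against 2286 and 2736 and rose by 2.88 (limma, adjusted p = 0.000576), and its partner Prim2 rose by 2.03 (adjusted p = 0.0132). Pole, the catalytic subunit of the leading strand polymerase, rose by 3.23 (adjusted p = 0.000895) and its partner Pole2 by 2.19 (limma, adjusted p = 0.00906). Exo1, a nuclease, read 12 and 25 against 259 and 321, with 1 of the 2 sham arrays below the control level, and rose by 3.50 (limma, adjusted p = 0.00226), and Wdhd1, which tethers polymerase alpha at the fork, rose by 1.86 (adjusted p = 0.00736). Dna2, the nuclease for long flaps, and the subunits of ribonuclease H2, which removes primer RNA, had values that did not pass: 0.54 for Dna2, 0.26 for Rnaseh2a, 0.63 for Rnaseh2b and 0.01 for Rnaseh2c. These 4 were singled out after their values were seen. The dimmer probe sets of Dna2, at -0.29 and 0.13, did not pass either, and differed in sign.

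**Figure D4:**
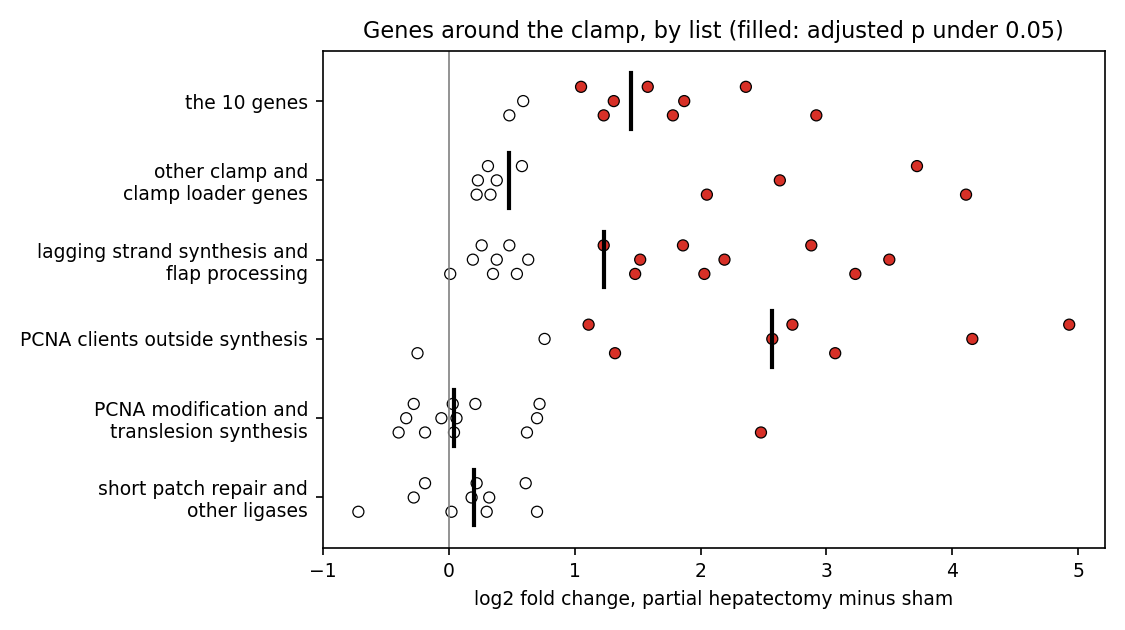
Log2 fold change, partial hepatectomy minus sham, of each tested gene by list, with a bar at the median of the list and filled points for an adjusted p under 0.05. The medians are 1.45 for the 10 genes and 2.57 for Pcna clients, against 0.04 for Pcna modification and 0.20 for short patch repair.

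Proteins that work with the ring in other tasks had the highest median of the 5 lists, 2.57, with 7 of 9 tested genes called higher. Dtl, a substrate receptor of the ubiquitin ligase that acts on Pcna-bound proteins, read 44.9 and 46.7 against 895 and 1034 and rose by 4.16 (limma, adjusted p = 0.000547). Its substrate Cdt1, a licensing factor, rose by 2.73 (adjusted p = 0.00524). Cdkn1a, which encodes the inhibitor p21 that also binds the ring, read 83.7 and 92.9 against 998 and 646 and rose by 3.07 (limma, adjusted p = 0.00138). Uhrf1, which brings Dnmt1 to newly replicated DNA, rose by 4.93, the maintenance methyltransferase Dnmt1 by 1.11, and Chaf1b, a subunit of the histone chaperone at forks, by 2.57 (limma, adjusted p = 0.001, 0.00981 and 0.00352). The dimmest probe set of Dnmt1, at 0.90, did not pass. The dimmer tested probe sets of Uhrf1 and Dtl were called higher by less, 2.63 and 2.82. The brighter one of Uhrf1 read 44 and 134 on the sham arrays.

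Of 13 genes of Pcna ubiquitination and translesion synthesis, 1 rose. This was Rad18, the ligase that ubiquitinates the ring at stalled forks, which read 38.2 and 58 against 299 and 305 (log2 fold change 2.48, limma, adjusted p = 0.00468). Of its other 3 probe sets, 1 passed (1.44) and 2 did not (1.15 and 1.56). The list's median was 0.04. Among the 10 genes of short patch repair and the other ligases, limma called 0, with 1 at an unadjusted p below 0.05 (Xrcc4), and the median was 0.20. Lig3, a ligase of mitochondria and base repair, and Lig4, the ligase of end joining, had log2 fold changes of 0.22 and 0.32. Neither passed, nor did the dimmer tested probe sets of Lig3 (0 and 0.55), beside the 2.92 of Lig1. Both ligases were named outside the naming rule given below. The difference between the lists was not tested.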

How the data were processed

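Total RNA of 4 mouse liver samples was labelled with biotin, per the labels, and hybridised to arrays whose probe set names are Affymetrix's. The authors deposited 1 intensity per probe set and array on a linear scale, with GCOS 1.4 as the software that the submitters' processing notes name. Software settings, detection calls, genome build and scan dates were not given in the sources used here. No batch was therefore tested. The authors' scaling was kept.

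Of 45101 probe sets, 64 controls were left out, and 34945 of the rest were named by 1 symbol. Before log2, 8.57 was added to each signal, which is percentile 20 over the 4 arrays together. Dropping those with a mean log2 value below percentile 40 (5.09) kept 27022. The 2 groups entered limma 3.58.1 (R 4.3.3) through lmFit, then eBayes with a mean-variance trend; tests were two-sided and called at a Benjamini-Hochberg adjusted p of 0.05. The code was tested on simulated data. Where both sham arrays lay under 20.4, the highest of 27 Bacillus subtilis control probe sets, folds are lower bounds. The text names all members, the called genes of each list (at most 6, by smallest adjusted p) and Rpa3. Other partner genes fall outside that rule: Chtf8, Dna2, Rnaseh2a, Rnaseh2b, Rnaseh2c, Rad9a, Rad1, Hus1, Rad17, Xrcc4, Lig3 and Lig4. Members and lists were chosen with earlier results of these data known. Promoter sequences are RefSeq's. The number of arrays limits the precision.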

Additional observations from a re-analysis of the deposited data

How the results depend on the processing

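Of the 10 genes, 8 were called; 8 were also called with an offset of 1 or of 32, with median centring and when a gene's probe sets were averaged, and 7 of 9 once probe sets with possible matches to several transcripts were dropped. It was 9 with quantile normalization, the stricter filter or robust eBayes. The count was 5 without the filter on dim probe sets, 2 without a mean-variance trend, and 5 to 8 with 1 array left out. Of the 19 probe sets, 13 were called, against 5 without the filter, 2 without the trend, 6 to 13 with 1 array left out, and 7 of 10 where only probe sets without a suffix for several matches were kept. The 21 partner genes became 13 to 22 with 1 array left out. Over all probe sets, 916 were called, against 308 without the filter, 258 without the trend and 341 to 2012 with 1 array left out. No log2 fold change of the 10 genes changed sign in any setting run, and no contrast between members did so under the 4 other offsets and scalings. The causes of these changes were not tested.

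The replicate numbers of the labels are not stated to pair the arrays. Deviations of same-numbered arrays from their group means correlated at 0.10 across probe sets. With the replicate number as a block, 9 of the 10 genes, 15 of the 19 probe sets and 1943 of all probe sets were called. The small number of arrays limits every test. The main fit had 2 residual degrees of freedom per probe set, and eBayes added 6.02 from the spread of all probe sets tested. No detection calls were at hand to limit dim signals.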
